A study of Mus musculus with 18 samples.

Results

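Mitochondrial ribosomal protein genes were examined for RNA polymerase II (Pol II) and CTCF in chromatin of mouse ventricles. The genes were taken as every protein-coding entry of the deposited peak table whose symbol begins with *Mrpl* or *Mrps* and a number. For each gene the promoter peak with the highest Pol II sum over 6 libraries was used. This gave 68 genes of 13580 protein-coding genes that had a promoter peak by the same rule. The 68 genes owned 119 promoter peaks, and 41 of them had 1 peak. All 68 genes lay on autosomes, spread over 16 chromosomes.

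The study compared adult hearts of 3 genotypes by chromatin immunoprecipitation and sequencing (ChIP-seq), with 2 libraries of each genotype for Pol II, 2 for CTCF and 1 for IgG, a control antibody without a chromatin target. WT mice were labelled only as wild type. *Trdn-as* KO mice carried, in both alleles of every cell, a polyadenylation site in the first exon of *Trdn-as*, the antisense transcript of the triadin gene. *Mettl3* KO mice had the genotype *Mettl3*lox/lox with a tamoxifen-inducible MerCreMer recombinase under the alphaMHC promoter, which is active in cardiomyocytes. They had received tamoxifen, so that other cells of these hearts still had an intact *Mettl3*, the gene of the RNA m6A methyltransferase. The methods of the study name floxed *Mettl3* animals without recombinase as controls, whereas the labels of these libraries give only WT. Each chromatin preparation pooled the ventricles of 2 hearts. Nothing says that replicates came from separate preparations, so the p-values measure the spread between libraries, which may be technical.

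Mitochondrial ribosomes make the few proteins encoded by mitochondrial DNA, all of them parts of the respiratory chain complexes and the ATP synthase. Their proteins are encoded in the nucleus, translated in the cytosol and imported, and they join mitochondrial rRNA in a large and a small subunit. Some have counterparts in bacterial ribosomes and others occur only in mitochondria. The heart, with its dense mitochondria, depends on this supply. Promoters of nuclear genes for mitochondria are known for binding sites of NRF1, of the ETS factor GABPA (also called NRF2) and of YY1. CTCF is a DNA-binding protein that marks boundaries of chromatin loops and is also found at a share of promoters.

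By their known place in the ribosome, 41 of the 68 genes encode large-subunit proteins and 26 encode small-subunit proteins. *Mrps18a* and *Mrps30*, named after the small subunit, are counted with the large subunit, where their proteins sit. The remaining gene, *Mrps36*, carries the family name but encodes a component of the 2-oxoglutarate dehydrogenase complex. Of the ribosomal members, 42 have a bacterial counterpart and 25 are particular to mitochondria.

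Promoter sequences of RefSeq on GRCm38.p6, which run from 250 bases before to 50 bases after an annotated start, were found for 60 of the 68 genes (64 promoters). The ETS letters CCGGAAG stood on either strand in 35.9% of these promoters. They stood in 14.8% of 13184 promoters of coding genes with a promoter peak and in 8.86% of all 32851 promoters of the table. The YY1 letters AAGATGGCG occurred in 12.5% of member promoters, against 2.45% and 1.40% in the same 2 backgrounds. The NRF1 palindrome CGCATGCG occurred in 10.9%, against 3.34% and 1.87%. At least 1 of these 3 motifs was present in 33 of the 64 member promoters. Sp1 letters (GGGCGG) were present in 32 of the 64 member promoters and 59.6% of coding promoters, and the NF-Y letters CCAAT in 40.6% and 36.9%. The TATA box (TATAAA) was found in 6.25% and 7.99%, and the E-box CACGTG in 6.25% and 9.32%. The ETS and Sp1 matches overlapped in 2 members, *Mrpl17* and *Mrps16*. Promoters of cytosolic ribosomal protein genes held the ETS letters in 29.5% and those of oxidative phosphorylation subunit genes in 24.2%. These matches are letters in a window and no measure of binding.

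The following 5 promoters are shown from 250 bases before the start to 30 bases from the start on, 5′ to 3′ on the strand of the gene. Capitals mark only the matches named beside each sequence, and other motif letters stay in lower case. *Mrps27* and *Mrps18a* are shown for the pairing of an ETS match upstream with a YY1 match just downstream of the start, at 14 bases after it in *Mrps27* and at 11 bases after it in *Mrps18a*. *Mrps27* (chr13:99344536-99344815, plus strand) has its ETS match on the reverse strand 48 bases upstream, and *Mrps18a* (chr17:46110754-46111033, plus strand) has it on the forward strand 26 bases upstream:
Mrps27: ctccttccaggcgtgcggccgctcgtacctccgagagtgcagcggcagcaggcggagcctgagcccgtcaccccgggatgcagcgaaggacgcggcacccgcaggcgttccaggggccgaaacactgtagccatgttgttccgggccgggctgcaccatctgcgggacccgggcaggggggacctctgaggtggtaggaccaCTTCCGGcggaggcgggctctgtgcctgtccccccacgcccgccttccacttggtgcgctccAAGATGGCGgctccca
Mrps18a: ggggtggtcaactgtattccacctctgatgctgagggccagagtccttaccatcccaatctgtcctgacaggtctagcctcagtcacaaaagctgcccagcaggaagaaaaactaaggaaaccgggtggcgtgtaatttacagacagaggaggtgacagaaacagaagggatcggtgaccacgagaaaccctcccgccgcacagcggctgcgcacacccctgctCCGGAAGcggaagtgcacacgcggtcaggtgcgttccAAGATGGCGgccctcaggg
*Mrpl32* (chr13:14613008-14613287, minus strand) is shown for its 2 NRF1 matches, 86 and 23 bases upstream. *Mrpl17* (chr7:105811058-105811337, minus strand) holds an ETS match, a CTCF core match and an NRF1 match, 237, 176 and 10 bases upstream:
Mrpl32: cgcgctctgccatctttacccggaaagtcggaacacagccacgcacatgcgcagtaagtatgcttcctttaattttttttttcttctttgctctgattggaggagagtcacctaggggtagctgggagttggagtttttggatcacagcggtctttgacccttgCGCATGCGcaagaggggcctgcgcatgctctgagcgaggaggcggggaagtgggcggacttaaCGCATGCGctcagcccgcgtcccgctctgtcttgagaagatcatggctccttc
Mrpl17: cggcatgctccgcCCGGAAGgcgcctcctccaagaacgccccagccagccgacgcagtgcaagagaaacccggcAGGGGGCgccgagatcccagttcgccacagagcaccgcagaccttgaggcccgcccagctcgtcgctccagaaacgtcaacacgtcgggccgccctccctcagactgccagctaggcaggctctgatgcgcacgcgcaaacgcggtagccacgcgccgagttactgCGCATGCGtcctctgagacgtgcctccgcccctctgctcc
*Mrps9* (chr1:42850983-42851262, plus strand) is the only member whose Pol II passed the test in any comparison of the main 3-genotype fit. It passed between the knockouts (1 of 65 members, beside 1.5% of all peaks), a call that several alternatives lost (below). Of the 8 motifs it held CCAAT 86 bases upstream and the Sp1 letters on the reverse strand 53 bases upstream:
Mrps9: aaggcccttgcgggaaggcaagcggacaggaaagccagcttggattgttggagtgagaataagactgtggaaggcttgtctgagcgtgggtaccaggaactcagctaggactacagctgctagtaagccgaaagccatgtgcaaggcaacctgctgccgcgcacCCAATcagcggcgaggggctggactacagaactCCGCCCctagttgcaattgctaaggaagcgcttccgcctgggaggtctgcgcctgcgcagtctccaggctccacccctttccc

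Pol II at the member promoters was measured as the normalised read count of each peak, that is, reads in the peak divided by a size factor of the library. In both WT libraries the most occupied member was *Mrpl41*, a large-subunit protein particular to mitochondria, with 599 and 622. *Trdn-as* KO hearts gave 627 and 464, which span the WT values, and *Mettl3* KO hearts 735 and 690, which lay above all others. By the mean of both WT libraries, next came *Mrpl48*, with 516 and 538, and *Mrps36*, with 473 and 411. Across the 68 genes the median value was 190.0 and 196.5 (WT), 196.5 and 171.0 (*Trdn-as* KO) and 240.0 and 244.0 (*Mettl3* KO). These values rest on a median of 84.0 to 208 reads a member in the 6 libraries.

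Because peaks differ in width, levels of different genes were compared per kilobase of peak (normalised read count per kb, mean of 6 libraries). The median over the members was 190 per kb, with an interquartile range from 127 to 255, beside a median of 136 per kb over all coding promoters. Cytosolic ribosomal protein genes had a median of 227 per kb and oxidative phosphorylation subunit genes 196 per kb. The 5 members with most Pol II per kb were *Mrps36* (373), *Mrps26* (305), *Mrpl41* (299), *Mrps6* (293) and *Mrpl15* (292). *Mrps6* and *Mrpl15* have bacterial counterparts, and *Mrps26*, like *Mrpl41*, is particular to mitochondria. The large-subunit genes had a median of 197 per kb and the small-subunit genes 178. Genes with a bacterial counterpart had a median of 172 and those particular to mitochondria 207. By motif, the medians per kb with and without a match were 197 and 174 for ETS, 197 and 183 for NRF1, 183 and 184 for YY1, 207 and 173 for NF-Y and 199 and 173 for Sp1. Each of the other 3 motifs was matched in 3 or 4 members.

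**Figure D1:**
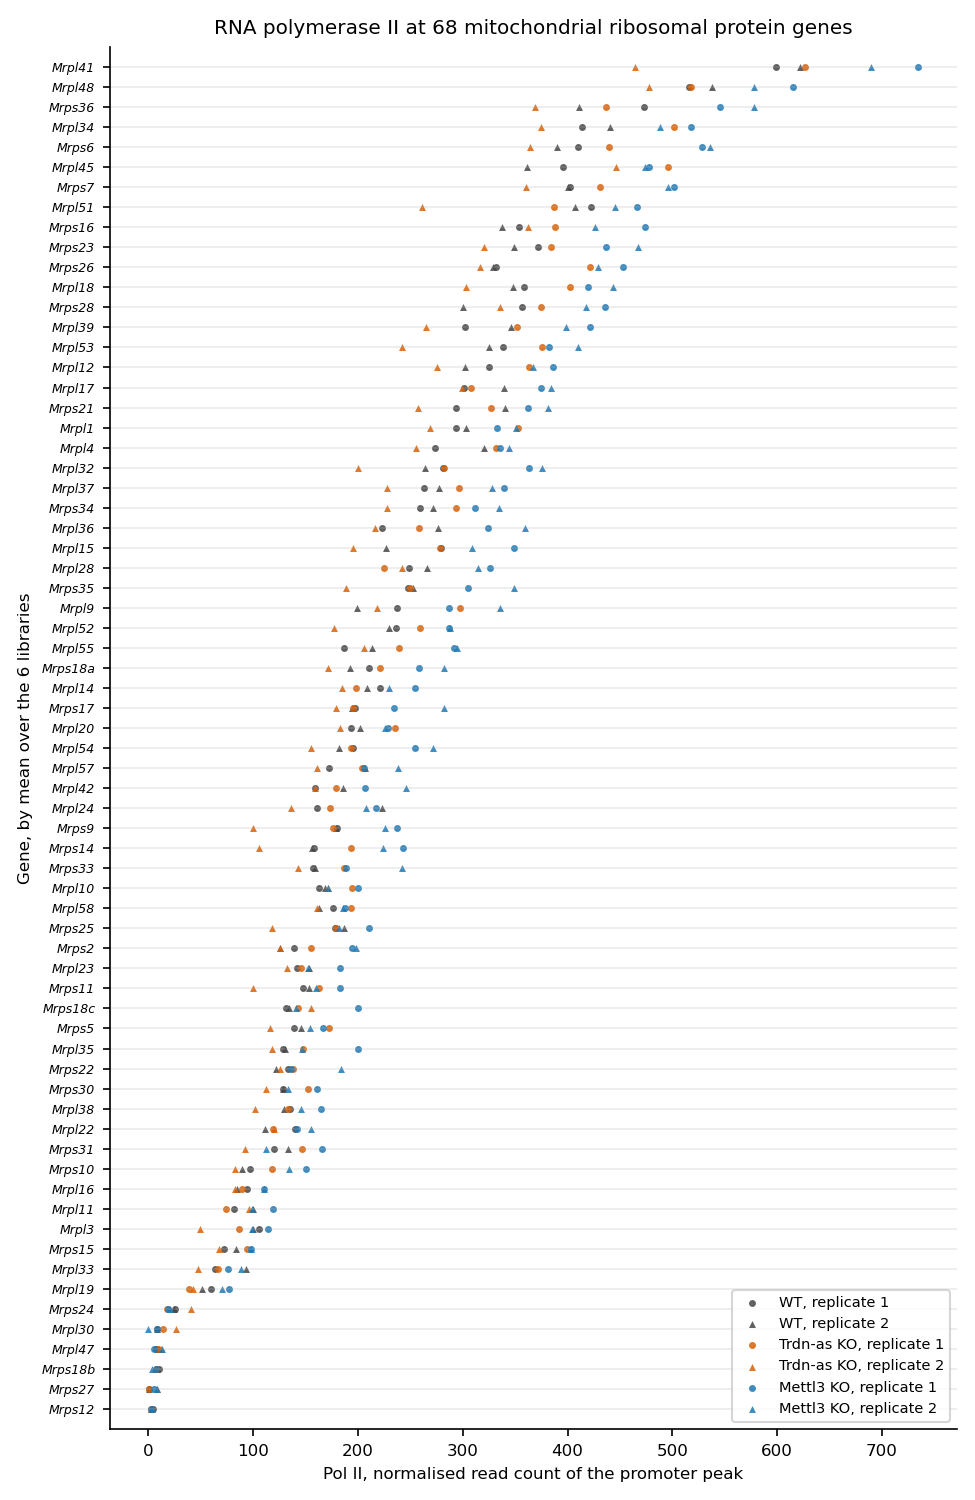
Normalised read count of Pol II (horizontal axis) at the promoter peak of each of the 68 genes (vertical axis, ordered by mean) in the 6 libraries, with colour for genotype and symbol for replicate. *Mrpl41* stands at the top with 464 to 735, *Mettl3* KO libraries lie to the right for most genes, and 6 genes at the foot lie near 0.

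The 5 members with least Pol II per kb were *Mrps12* (13.4), *Mrpl30* (22.0), *Mrps18b* (22.7), *Mrps27* (25.8) and *Mrps24* (36.9). For 4 of them, and for *Mrpl47*, the listed peak did not cover the gene's start, and a second peak that did cover it was listed under the neighbouring gene on the other strand. *Mrps27*, a small-subunit protein, had values of 1 and 1 in WT at its listed peak. The peak over its start, listed under *Ptcd2* (chr13:99480659-99481655, GRCm39), had 275 and 223 (WT), 285 and 218 (*Trdn-as* KO) and 323 and 307 (*Mettl3* KO). *Mrps12*, of the decoding centre of the small subunit, had 4 and 2 in WT at its own peak, and 268 and 252 at the peak over its start, which is listed under *Sars2*, the mitochondrial seryl-tRNA synthetase. *Mrpl30* had 8 and 8, and 286 and 292 at the peak listed under *Mitd1*. *Mrpl47* had 7 and 10, and 276 and 303 at the peak listed under *Ndufb5*, a subunit of complex I. *Mrps18b* had 10 and 8, and its start lay inside a wide peak of *Ppp1r10* with 2630 and 2654. The low listed values of these 5 genes thus stood beside well occupied starts.

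**Figure D2:**
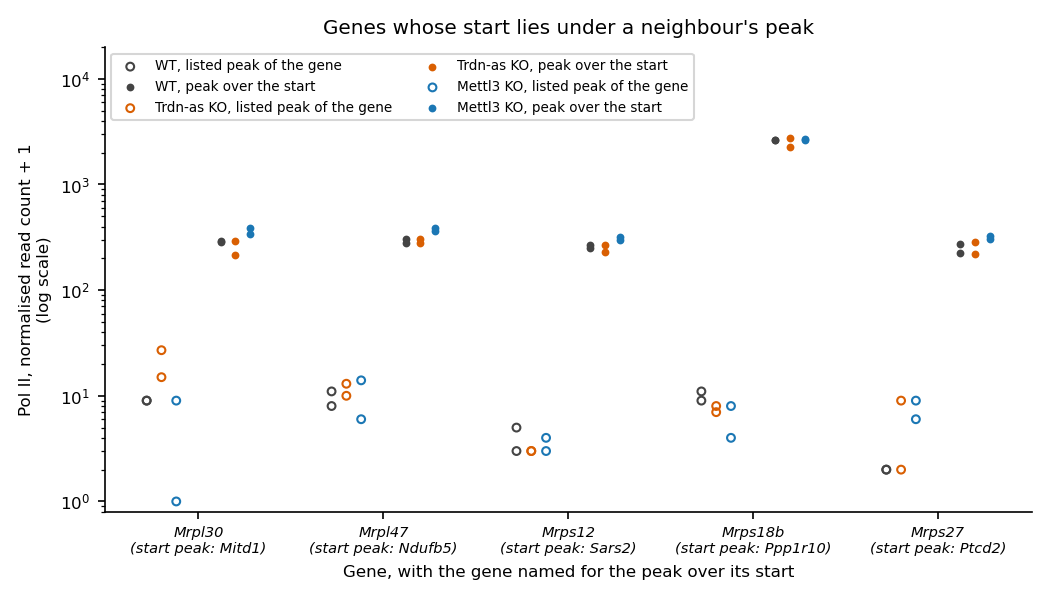
Pol II as normalised read count + 1 (log scale) in each library for the 5 genes whose start lies under a peak listed for the neighbouring gene. Open circles are the listed peak of the gene, which stayed at or below 26, and filled circles are the peak over the start, which ranged from 214 in *Mrpl30* to 2772 in *Mrps18b*.

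The other 3 members whose listed peak missed the start were *Mrpl35*, *Mrpl45* and *Mrps24*. No peak covered the starts of *Mrpl35* and *Mrps24*. For *Mrpl45* a further peak of its own covered the start with 252 and 264 in WT, beside 396 and 361 at the stronger peak 5196 nt away. In all, the listed peak covered the start of 60 of 68 members (88.2%) and of 73.9% of all coding genes. Neighbouring starts on the opposite strand within 1000 nt were present in GENCODE M21 for 23 of the 68 members (33.8%). The share was 10.8% of 13182 coding genes with a promoter peak. Reads from such a shared start region cannot be told apart between both genes, since ChIP reads carry no strand of transcription. Pairs of this kind include *Mrpl36* with *Ndufs6*, *Mrpl32* with the proteasome gene *Psma2*, and *Mrps34* with *Eme2*.

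A further 10 names of the mitochondrial ribosome nomenclature had no row under their own symbol and were not analysed here as members. They are *Mrpl2*, *Mrpl13*, *Mrpl21*, *Mrpl27*, *Mrpl40*, *Mrpl43*, *Mrpl44*, *Mrpl46*, *Mrpl49* and *Mrpl50*. In GENCODE M21 all 10 had an opposite-strand neighbour start within 1000 nt, a feature of 11.0% of 8723 coding genes without a row. The neighbour of *Mrpl46* is itself a member, *Mrps11*, with 148 and 153 in WT. The neighbour of *Mrpl49* is *Fau*, a gene of the cytosolic ribosome, with 381 and 361 in WT. Promoter peaks of 9 of the 10 neighbours had a mean Pol II of 123 to 454 over the 6 libraries. The exception was *Twnk*, the neighbour of *Mrpl43*, whose listed peak lay 3123 nt from its start and had a mean of 5.83.

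Against IgG, the Pol II signal was clear at nearly every member. In RPM (reads scaled to the uniquely mapped total of the library), the mean of both WT Pol II libraries was a median of 14.4 times the WT IgG library over the members (*Mrps12*, with 0 IgG reads, left out), and 12.6 times over all coding promoters. Both Pol II libraries exceeded the upper bound of the exact 95% Poisson interval of IgG in 65 of 68 members (95.6%), beside 85.8% of coding promoters. The interval covers counting error only. The 3 others were *Mrps12*, *Mrps27* and *Mrpl30*, which are among the genes with the peak over the start listed elsewhere.

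The depth and quality of the libraries bear on all comparisons below. The Pol II libraries held an estimated 1987609 to 4953896 reads in peaks. Peaks took 35.5% to 42.6% of the uniquely mapped reads in 5 of the 6 Pol II libraries, and 18.6% in *Trdn-as* KO replicate 2, which stands apart. Peaks of the Y chromosome had sums of 0 in all *Trdn-as* KO libraries and above 0 in all others, so that the sex of the animals and this genotype cannot be told apart. At the *Trdn-as* promoter Pol II was 530 and 595 (WT), 140 and 100 (*Trdn-as* KO) and 503 and 491 (*Mettl3* KO), as the labels say. The *Mettl3* promoter peak had 177 and 202 (WT) against 240 and 235 (*Mettl3* KO). Pol II at this promoter is no check of the excision, which the labels do not place.

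In *Trdn-as* KO hearts no mitochondrial ribosomal protein gene differed from WT in Pol II past the threshold. A limma model of log2(value + 1) over the 6 Pol II libraries tested 65 of the 68 members among 52655 peaks, and 0 of the 65 passed an adjusted p of 0.05 (Benjamini-Hochberg). Over all peaks 0.304% passed. An unadjusted p under 0.05 was found in 2 members (3.08%), beside 4.77% of coding promoters and 7.70% of all peaks. *Mrps12*, *Mrps18b* and *Mrps27* were not tested because their values were too low. The median log2 fold change of *Trdn-as* KO over WT was -0.055 in the members and -0.032 in all coding promoters. It was positive in 24 and negative in 41 members. The scaling sets this split: with sums over all peaks made equal, 31 were positive and 34 negative (medians of -0.0052 in the members and 0.017 in coding promoters), and per uniquely mapped read 1 was positive and 64 negative (-0.65 and -0.63). Both *Trdn-as* KO libraries lay above both WT libraries in 5 members (7.69%), beside 11.4% of coding promoters and 12.9% of all peaks, and below them in 6 (9.23%), beside 12.4% and 19.1%.

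Values below WT in both libraries were found at *Mrpl3*, a large-subunit protein with a bacterial counterpart, with 106 and 100 (WT) against 86 and 49 (*Trdn-as* KO). Its log2 fold change was -0.66 ± 0.27 (SE, n = 2 and 2, adjusted p = 0.511, limma). *Mrps9*, a small-subunit protein, had 180 and 179 (WT) against 176 and 100 (*Trdn-as* KO), with an adjusted p of 0.663. *Mrpl19* had 60 and 51 (WT) against 39 and 43 (*Trdn-as* KO). In *Mrpl3* and *Mrps9* the lower of the KO values came from replicate 2, the library with fewer reads in peaks. On the other side, *Mrpl45* had 396 and 361 (WT) against 496 and 446 (*Trdn-as* KO) at its listed peak, a log2 fold change of 0.31 ± 0.16 (adjusted p = 0.668). The peak over its start had 252 and 264 (WT) against 268 and 238 (*Trdn-as* KO), with no separation of the groups. *Mrps18c* had 131 and 134 (WT) against 143 and 155 (*Trdn-as* KO). Per uniquely mapped read both turned negative, at -0.29 for *Mrpl45* and -0.43 for *Mrps18c*. *Mrpl30*, at its weak listed peak, had 8 and 8 (WT) against 14 and 26 (*Trdn-as* KO). The peak over the start of *Mrpl30* had 286 and 292 (WT) against 289 and 214 (*Trdn-as* KO), a log2 fold change of -0.22. Without *Trdn-as* KO replicate 1, 6 of 64 members passed, all of them lower, beside 4.3% of all peaks and 8.20% of coding promoters. The single library then left is the one with fewer reads in peaks, it is assumed to vary like the other groups, and the median of all coding promoters shifted to -0.19.

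In *Mettl3* KO hearts Pol II was higher at most member promoters, and so it was at most coding promoters. Both *Mettl3* KO libraries lay above both WT libraries in 54 of the 65 tested members, beside 31.2% of all peaks and 67.5% of coding promoters. They lay below them in 1 member, beside 19.5% of all peaks and 7.23% of coding promoters. The median log2 fold change was 0.30 in the members, with quartiles of 0.19 and 0.38, and 0.27 in the coding promoters. The difference of both medians was 0.030. In single libraries the median level of the members stood above that of coding promoters by 0.24 and 0.27 (WT) and 0.29 and 0.33 (*Mettl3* KO) on the log2 scale. This distance of levels is another measure than the difference of fold changes. It had an SD of 0.025 between replicates of these genotypes. None of the 65 members passed the test of the 3-genotype model (0 of 65), where 1.19% of all peaks did. An unadjusted p under 0.05 was found in 17 members (26.2%), beside 25.6% of coding promoters and 15.5% of all peaks.

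This count depended on the *Trdn-as* KO libraries, which share the estimate of the spread. In a fit to the 4 libraries of WT and *Mettl3* KO alone, 21 of 64 members passed, all of them higher, where 10.3% of all peaks and 27.5% of coding promoters passed. The count was also 21 without *Trdn-as* KO replicate 1 (9.71% of all peaks) and without replicate 2 (9.97%). The 21 included *Mrps6* (log2 fold change 0.41, adjusted p = 0.010, limma), *Mrps26* (0.41, adjusted p = 0.014) and *Mrpl55* (0.55, adjusted p = 0.014). The scaling of the libraries also matters. With sums over all peaks made equal, the median of the members was 0.14 and that of coding promoters 0.11, and per uniquely mapped read they were 0.16 and 0.13.

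The highest fold changes over WT were those of 3 small-subunit genes with bacterial counterparts. *Mrps10* had 97 and 89 (WT) against 150 and 134 (*Mettl3* KO), a log2 fold change of 0.60 ± 0.25 (SE, n = 2 and 2, adjusted p = 0.217, limma on 6 libraries). *Mrps14* had 158 and 156 (WT) against 243 and 224 (*Mettl3* KO) (0.57 ± 0.22). *Mrps2* had 139 and 126 (WT) against 194 and 198 (*Mettl3* KO) (0.56 ± 0.22). In each of these genes the groups stood apart, while *Trdn-as* KO values of 118 and 83 in *Mrps10* spanned those of WT. *Mrpl55*, of the large subunit, had 187 and 213 (WT) against 292 and 295 (*Mettl3* KO), with the smallest adjusted p of the members in the 6-library fit (0.141). The only member with both *Mettl3* KO libraries below WT was *Mrps24*, with 25 and 24 (WT) against 19 and 21 (*Mettl3* KO), at a weak peak 1867 nt from its start.

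Small-subunit genes had a median log2 fold change of 0.34 and large-subunit genes 0.25 in *Mettl3* KO hearts, and genes with and without bacterial counterparts had 0.29 and 0.30. Cytosolic ribosomal protein genes had a median of 0.24 with 0 of 80 tested genes past the threshold. Oxidative phosphorylation subunit genes, which encode the respiratory chain and ATP synthase, had a median of 0.24. At the starts listed under neighbours the fold changes resembled those of other members, with 0.32 for *Mrpl30*, 0.36 for *Mrpl47*, 0.24 for *Mrps12* and 0.35 for *Mrps27*. The start of *Mrps18b*, in the wide *Ppp1r10* peak, had 0.012.

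The hearts are mixtures of cells, and fewer cells of a type or less Pol II per cell cannot be told apart in these libraries. Among marker lists, 5 of 8 fibroblast genes were called higher in *Mettl3* KO against WT (*Col1a1*, *Col1a2*, *Col3a1*, *Pdgfra* and *Tcf21*). In either direction 1.19% of all peaks and 1.73% of coding promoters were called. All 8 had both *Mettl3* KO libraries above both WT libraries, beside 67.5% of coding promoters, with a list median of 1.11. The summed Pol II of the 8 fibroblast genes was 928 and 991 (WT), 1400 and 990 (*Trdn-as* KO) and 1944 and 1942 (*Mettl3* KO), with none of them at 0. The summed Pol II of 12 cardiomyocyte genes was 32639 and 34784 (WT), 33288 and 25417 (*Trdn-as* KO) and 32741 and 33232 (*Mettl3* KO). The median log2 fold changes of cardiomyocyte and endothelial markers in *Mettl3* KO were 0.015 and -0.088, below that of coding promoters. In the 4 leukocyte genes found the median was -0.030, in smooth muscle and pericyte genes 0.20 with 1 of 6 called higher (*Pdgfrb*), and in skeletal muscle genes 0.19. *Myh6*, the gene of alphaMHC, was called lower in *Trdn-as* KO against WT (log2 fold change -0.35 ± 0.08, adjusted p = 0.029, limma). The part of the cell mixture in the members' values was not tested.

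Between both knockouts, Pol II was lower in *Trdn-as* KO at most member promoters, and so it was at most coding promoters. Both *Trdn-as* KO libraries lay below both *Mettl3* KO libraries in 48 of 65 members, beside 29.9% of all peaks and 56.9% of coding promoters. They lay above them in 1 member, beside 13.9% of all peaks and 4.69% of coding promoters. The median log2 fold change was -0.36 in the members and -0.30 in coding promoters. With sums over all peaks made equal these were -0.15 and -0.090, and per uniquely mapped read -0.82 and -0.76. A single member, *Mrps9* (chr1:42889982-42890944, GRCm39), was called, where 1.5% of all peaks and 2.02% of coding promoters were. An unadjusted p under 0.05 was found in 27 members (41.5%), beside 31.6% of coding promoters and 17.9% of all peaks. *Mrps9* had 176 and 100 (*Trdn-as* KO) against 237 and 226 (*Mettl3* KO), a log2 fold change of -0.80 ± 0.22 (SE, n = 2 and 2, adjusted p = 0.044, limma). The call was lost per uniquely mapped read, in the fit to these 2 genotypes alone and when any library other than *Trdn-as* KO replicate 1 was left out, and the log2 fold change was -0.39 without *Trdn-as* KO replicate 2. Without *Trdn-as* KO replicate 1, 39 of 64 members passed, all of them lower in *Trdn-as* KO, beside 19.3% of all peaks and 51.4% of coding promoters. That genotype is then the single library with few reads in peaks, assumed to vary like the other groups. *Mrps14* had 193 and 106 against 243 and 224 (-0.70 ± 0.22, adjusted p = 0.086), and *Mrpl19* had 39 and 43 against 77 and 70 (-0.83 ± 0.30, adjusted p = 0.138). *Mrpl30* went the other way at its weak listed peak, with 14 and 26 against 8 and 0 (adjusted p = 0.076), whereas the peak over its start had a log2 fold change of -0.54. The comparison shares its libraries with both comparisons to WT and is no independent evidence.

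**Figure D3:**
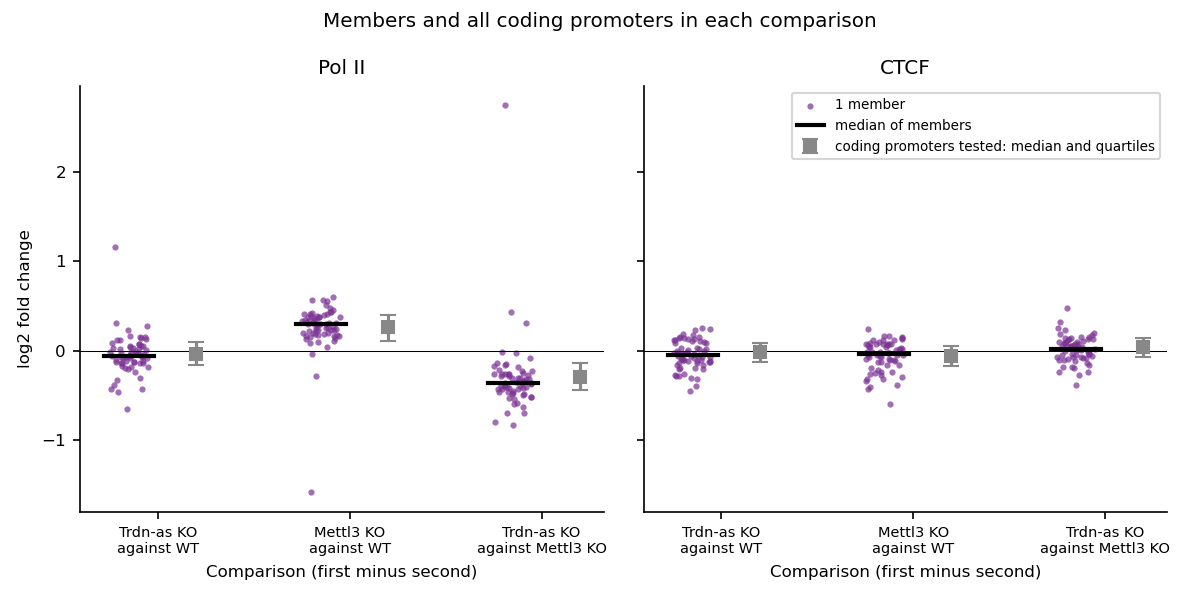
log2 fold change (vertical axis) of each tested member in 3 comparisons for Pol II (left) and CTCF (right), with the median of the members as a bar and the median and quartiles of all coding promoters tested as a grey square. The medians of members and coding promoters lie close in all 6 comparisons, at 0.30 and 0.27 for Pol II in *Mettl3* KO over WT, and the far points of Pol II are *Mrpl30*.

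CTCF at the member promoters lay near its level at other coding promoters. The median of CTCF over IgG in WT was 5.81 in the members and 5.67 in coding promoters, and both CTCF libraries exceeded the IgG bound in 66 of 68 members and 93.4% of coding promoters. The members took 0.487% to 0.503% of the CTCF signal at coding promoters in the 6 libraries, and 0.484% to 0.511% of the IgG signal there. Per kb, the median over the members was 45.8 and over coding promoters 41.3. The 5 members with most CTCF per kb were *Mrps16* (108.9), *Mrps33* (106), *Mrpl23* (102), *Mrpl11* (100) and *Mrpl39* (94.9). *Mrps16*, a small-subunit protein with a bacterial counterpart, had CTCF values of 168 and 135 (WT), 144 and 177 (*Trdn-as* KO) and 155 and 154 (*Mettl3* KO). *Mrps2* had the highest ratio to IgG, 22.9, with 121 and 105 (WT), 108 and 116 (*Trdn-as* KO) and 96 and 105 (*Mettl3* KO). In both genes the genotypes overlapped or touched.

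The CTCF core letters (AGGGGGC or AGGTGGC) were found in 4.69% of member promoters and 22.3% of coding promoters. The 3 members with a match were *Mrpl17*, *Mrpl18* and *Mrpl51*. Of the 12 members with most CTCF per kb, 11 had a promoter sequence and 1 of these, *Mrpl17* (printed above), held a match. The peaks are wider than these windows, with a median width of 1132 nt in the members.

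**Figure D4:**
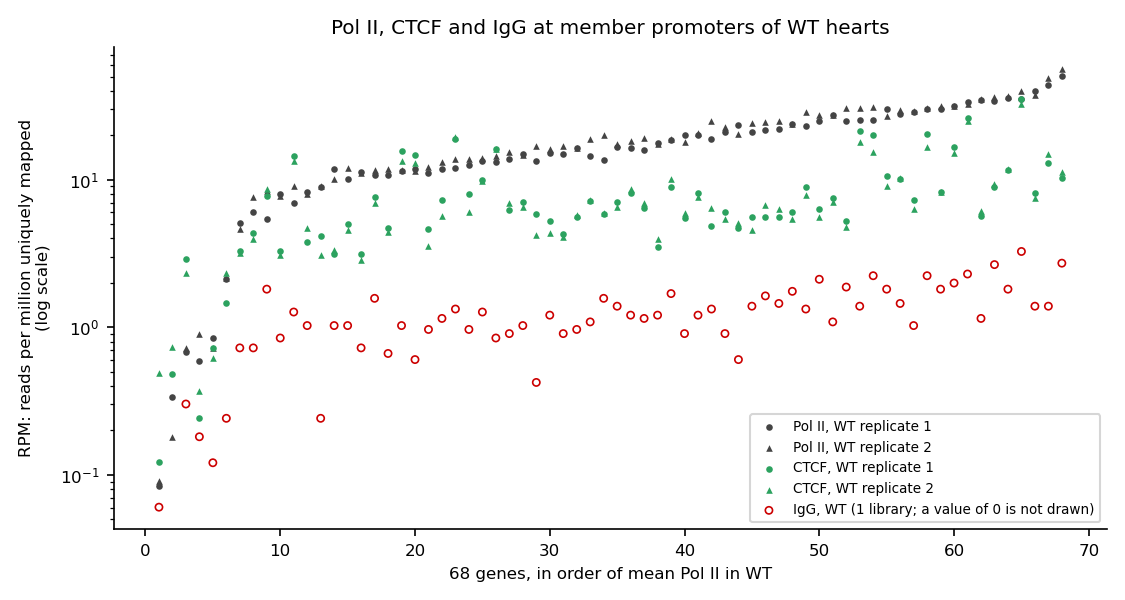
RPM (log scale) of Pol II, CTCF and IgG in WT libraries at the 68 genes, ordered by Pol II. Pol II lies a median of 14.4 times above IgG and CTCF 5.81 times, and both drop at the 6 genes of lowest signal.

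No member changed in CTCF past the threshold in any comparison (0 of 64 tested in each). Among 60649 tested peaks, 0.587% passed for *Trdn-as* KO against WT, 0.185% for *Mettl3* KO against WT and 1.37% for *Trdn-as* KO against *Mettl3* KO. Unadjusted p-values under 0.05 numbered 4, 7 and 5 members (6.25%, 10.9% and 7.81%), beside 8.66%, 13.2% and 11.1% of coding promoters and 10.2%, 15.7% and 18.8% of all peaks. The median log2 fold changes of the members were -0.048, -0.035 and 0.022, beside -0.018, -0.056 and 0.038 in coding promoters. Both *Trdn-as* KO libraries lay above WT in 8 members (12.5%), beside 14.3% of coding promoters and 19.4% of all peaks, and below WT in 10 (15.6%), beside 18.9% and 13.1%. Both *Mettl3* KO libraries lay above WT in 6 members (9.38%), beside 13.7% of coding promoters and 15.8% of all peaks, and below WT in 18 (28.1%), beside 29.7% and 27.7%. Between the knockouts, both libraries were higher in *Trdn-as* KO in 15 members (23.4%), beside 27.2% of coding promoters and 34.7% of all peaks, and lower in 7 (10.9%), beside 13.1% and 12.6%.

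The lowest fold changes in both knockouts were those of *Mrps34*, a small-subunit protein particular to mitochondria. Its CTCF value was 46 and 55 (WT), 35 and 38 (*Trdn-as* KO) and 34 and 32 (*Mettl3* KO). The log2 fold change was -0.59 ± 0.15 in *Mettl3* KO (SE, n = 2 and 2, adjusted p = 0.085, limma) and -0.45 ± 0.15 in *Trdn-as* KO (adjusted p = 0.291). WT stood above both knockouts, and the same 2 WT libraries enter both comparisons. *Mrpl35* had 39 and 36 (WT), 30 and 30 (*Trdn-as* KO) and 28 and 28 (*Mettl3* KO). *Mrpl16* had 27 and 25 (WT) against 19 and 19 (*Mettl3* KO) (-0.43 ± 0.17, adjusted p = 0.236). *Mrpl1* had 52 and 45 (WT) against 37 and 41 (*Trdn-as* KO) (-0.31 ± 0.14). CTCF in WT exceeded IgG there by 3.79 times at *Mrps34* and 6.91 times at *Mrpl35*, in RPM.

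Higher CTCF in both libraries was seen at *Mrpl20*, with 67 and 70 (WT), 81 and 83 (*Trdn-as* KO) and 65 and 53 (*Mettl3* KO). *Trdn-as* KO exceeded *Mettl3* KO there by a log2 fold change of 0.48 ± 0.12 (adjusted p = 0.064). *Mrpl45* had 215 and 201 (WT) against 228 and 242 (*Trdn-as* KO) at its listed peak, while the peak over its start had a log2 fold change of -0.025. *Mrps23* had 136 and 122 (WT) against 152 and 141 (*Trdn-as* KO). Among members with both *Mettl3* KO libraries above both WT libraries, *Mrpl30* (0.24), *Mrpl18* (0.15) and *Mrps33* (0.13) had the highest log2 fold changes of *Mettl3* KO over WT. For *Mrpl30* this is the listed peak, and the peak over its start had -0.024. Between the knockouts, *Mrpl58*, a peptidyl-tRNA hydrolase built into the large subunit, had 54 and 54 (*Trdn-as* KO) against 46 and 44 (*Mettl3* KO), and *Mrpl16* 24 and 24 against 19 and 19. *Mrpl36*, *Mrpl18* and *Mrps36* were lower in *Trdn-as* KO, with log2 fold changes of -0.39, -0.27 and -0.24. None of these passed the test.

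Genes that act beside the mitochondrial ribosome had medians of similar size. Of 30 listed ribosome partners and assembly factors, such as the rRNA methyltransferases and the GTPases that join the subunits, 23 had a promoter peak. In *Mettl3* KO their median log2 fold change of Pol II was 0.25, and 0 of 21 tested passed. Mitochondrial translation and transcription factors (19 of 20 found, 17 tested) had a median of 0.32 and 0 calls, and mitochondrial aminoacyl-tRNA synthetases (15 of 18) had 0.25 and 0 calls. In *Trdn-as* KO against WT the medians of these lists were -0.064, -0.0072 and -0.083, with 0 calls each. Among 13 regulators of nuclear genes for mitochondria, such as *Nrf1*, *Gabpa*, *Yy1* and *Ppargc1a*, a single gene was called. Pol II at *Myc*, a transcription factor that promotes growth, had means of 522 in WT and 773 in *Mettl3* KO (log2 fold change 0.57 ± 0.15, adjusted p = 0.043), and *Trdn-as* KO lay below *Mettl3* KO there (-0.73 ± 0.15, adjusted p = 0.0042). The median of the 13 regulators in *Mettl3* KO was 0.33. CTCF gave 0 calls in each of these 4 lists and all 3 comparisons.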

How the data were processed

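Pol II, CTCF and IgG ChIP-seq of ventricles from 3 genotypes was analysed (15 libraries). 3 input libraries were not used here. Per the study's methods and the submitters' processing notes, the authors trimmed reads with Trimmomatic 0.39, aligned them with STAR 2.7.11b to mm39 (GRCm39), removed duplicates with Picard 3.1.1, called peaks with MACS, merged them into 101256 union peaks, counted reads with featureCounts and normalised them with DESeq2 1.36.0. Peaks were annotated by the authors to a gene when they reached within 5000 nt of its start, and distances given here run from the centre of the peak. The deposited score of a peak is thus a read count divided by a size factor and rounded to a whole number and is no raw count. Size factors assume that most peaks do not change, and signal that moves everywhere is removed or shifted by them.

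Groups came from the titles. limma 3.58.1 (R 4.3.3) was run on log2(score + 1) of peaks with at least 10 in at least 2 of 6 libraries, with a variance trend, a 3-genotype model per target, and Benjamini-Hochberg adjustment over all peaks tested at 0.05. A count model had been planned for raw counts only. The script was tested on simulated data. The value of 1 read in a library was estimated from the spacing of low values. It gave reads in peaks, and could not be had for both CTCF libraries of Mettl3 KO. Exact permutation of 2 against 2 libraries cannot go below p = 0.33 and was not used. Intervals cover counting error only. Named genes were all members called, per comparison the 3 highest and 3 lowest whose libraries did not overlap, the 5 most and 5 least occupied per kb and called genes of the lists, and any member could be named. The values of *Mrpl55* were given after they were seen. Not all results for genes outside the members are reported here. The members and all gene lists were chosen with earlier results of these data known. Alternatives changed scaling, filter, pseudocount, variance model, samples, replicate block and peak choice. Positions of peaks are as the file gives them on GRCm39. Promoter sequences and neighbouring starts are from RefSeq and GENCODE M21 on GRCm38 and were matched by symbol only.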

Additional observations from a re-analysis of the deposited data

Results flagged for a closer look

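Groups of 2 libraries are too small for a test of outlying values within a group, and none was made. What stood out was CTCF at further promoter peaks of the members, which the comparisons of the members do not use, apart from the peak over the start of *Mrpl45*. Of 51 such peaks, 6 had a mean CTCF value of at least 50 over the 6 libraries and exceeded the IgG bound in both WT libraries. CTCF was 27.2 times IgG (RPM, WT) at a peak 2797 nt from the start of *Mrps10*, 22.7 times at a peak 3393 nt from *Mrpl52*, 16.4 times at a peak 5388 nt from *Mrpl23* and 14.9 times at a peak 3112 nt from *Mrpl28*. It was 8.99 times IgG at a peak 1123 nt from *Mrpl53* and 6.32 times at the peak over the start of *Mrpl45*. The *Mrps10* peak had CTCF values of 86 and 75 (WT), 96 and 89 (*Trdn-as* KO) and 87 and 75 (*Mettl3* KO), beside Pol II values of 14 and 17 in WT. Its CTCF stood above the 34.7 of the promoter peak of *Mrps10* (mean of 6 libraries). At *Mrpl45* the further peak carried Pol II as well, with 252 and 264 in WT. None of the further peaks tested for CTCF (21 of 51) passed the threshold in any comparison, nor did those tested for Pol II (25 of 51).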

How the results depend on the processing

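The counts of members called for Pol II were sensitive to which libraries set the spread. Under every alternative run, the distance of the members' median fold change from that of coding promoters moved by less than 1 SD from its main value. For Pol II the ranges were -0.030 to 0.008 for *Trdn-as* KO over WT, 0.017 to 0.036 for *Mettl3* KO over WT and -0.078 to -0.049 between the knockouts. The SD (0.098, 0.025 and 0.099) is that of levels in single libraries between replicates of the genotypes compared, which is another measure. Scaling, variance model and replicate block can barely move a difference of medians, so those alternatives do not test it. For Pol II in *Trdn-as* KO against WT, 1 member passed with equal sums over all peaks (0.749% of all peaks), and 0 to 6 when leaving out 1 library. For *Mettl3* KO against WT, 21 passed in the fit to the 2 genotypes compared, and 0 to 21 when leaving out 1 library. Between the knockouts, 2 passed with equal sums (2.94% of all peaks), 7 with the filter at 50 (8.21%), 3 with pseudocount 8 (2.46%), 4 with a robust prior variance (2.78%), and 0 per uniquely mapped read, without a filter, without a variance trend or in the fit to 2 genotypes, with 0 to 39 when leaving out 1 library. For CTCF, 1 member (*Mrps34*) passed in *Mettl3* KO against WT with a robust prior variance (1.68% of all peaks), and 1 (*Mrpl20*) between the knockouts with that variance (3.13%) or the filter at 50 (3.74%). The cause was not tested. Per uniquely mapped read, Pol II in *Trdn-as* KO over WT turned to -0.29 for *Mrpl45* and -0.43 for *Mrps18c*, and the median of coding promoters moved to -0.63. Taking the peak over the gene start, an alternative chosen after seeing the data, turned *Mrpl30* to -0.22 and *Mrpl45* to -0.030 in *Trdn-as* KO over WT, *Mrpl30* to -0.54 between the knockouts, and CTCF to -0.024 for *Mrpl30* (*Mettl3* KO over WT) and -0.025 for *Mrpl45* (*Trdn-as* KO over WT). The CTCF fit per uniquely mapped read was not run, since the value of 1 read could not be estimated in 2 libraries. With the replicate number as a block, 0, 0 and 1 members passed for Pol II and 0 in each CTCF comparison, as without it, and calls over all peaks for CTCF went from 356 to 236, from 112 to 2 and from 828 to 376. Replicate differences correlated between -0.010 and 0.006 except for CTCF of WT and *Trdn-as* KO (-0.24), so the numbers do not pair the libraries. A block with crossed numbers, added after seeing the data, gave 503 calls there and 0 members. Depth limits what can be said of the 6 weakest listed peaks.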
